A study of Arabidopsis thaliana with 9 samples.

Results

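The genes described here are 10 transcription factor genes of light signalling and leaf greening in Arabidopsis thaliana, of 33602 loci in the deposited expression table. They were taken by locus identifier: the Golden2-like genes GLK1 (AT2G20570) and GLK2 (AT5G44190), the B-class GATA genes GNC (AT5G56860) and CGA1 (AT4G26150), the bZIP genes HY5 (AT5G11260) and HYH (AT3G17609), and the phytochrome-interacting factor genes PIF1 (AT2G20180), PIF3 (AT1G09530), PIF4 (AT2G43010) and PIF5 (AT3G59060). All 10 were in the table and all 10 were abundant enough to be tested. GLK1 was lower in every mutant sample than in every wild-type sample. Taken singly, 11.6% of all tested loci were so in the double mutant 2cpab and 13.9% in the triple mutant ntrc-2cpab. The share of loci lower in both mutants at once was not counted. To pass the test is to have an adjusted p under 0.05 in a limma fit over all tested loci. GLK1 was the 1 gene of the 10 that passed in any comparison, in ntrc-2cpab, where 3.94% of all tested loci passed. This call held in 5 of 17 alternative fits.

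Seedlings turn green in light because photoreceptors shift the balance between 2 sets of transcription factors. PIFs, basic helix-loop-helix proteins that accumulate in darkness and promote elongation, are degraded after phytochromes bind them. HY5 and its relative HYH are destroyed by the COP1-SPA ubiquitin ligase in darkness and activate light-induced genes once that ligase is restrained. GLK1 and GLK2 switch on genes for chlorophyll synthesis and light-harvesting proteins, and GNC and CGA1 promote chloroplast growth and division. GLK1 is also known as a gene that responds to signals from damaged plastids to the nucleus.

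The plants were of the Col-0 accession and 8 weeks old, grown in short days, and young rosette leaves were taken 2 h after the lights came on at 125 µE per square metre and second. There were 3 genotypes with 3 biological replicates each, every replicate being leaves pooled from 3 plants. The 2cpab double mutant is mutated in 2CPA and 2CPB, the genes of the 2-Cys peroxiredoxins, plastid enzymes that detoxify hydrogen peroxide. The ntrc-2cpab triple mutant carries the same mutations together with that of NTRC, the thioredoxin reductase that keeps these peroxiredoxins reduced in chloroplasts. The wild type carries none of these mutations, which are present in all cells of the mutants. The labels name no second allele or complemented line, so the mutations and other differences between the lines cannot be told apart.

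Values were deposited as log2(abundance + 1), and an abundance below is that value turned back, in the authors' scaled units. The abundance of 2CPA was 259 to 325 in the wild type and 3.43 to 4.85 in the mutants, that of 2CPB was 53.0 to 63.4 and 8.88 to 10.8, and that of NTRC was 14.7 to 18.3 in ntrc-2cpab and 60.9 to 80.2 elsewhere, as the labels say. The number of reads behind each value is unknown. The authors' scaling factor was read from the steps of the lowest values. It was 1.0777 to 1.095 in the wild type and 0.9699 to 1.0504 in the mutants, without overlap. Some values are therefore also given with this scaling undone, and values given without it can differ too. Wild type replicate 1 stood apart on the first principal component (37% of the variance), at -36.2 against -18.3 and -4.42 in the other wild-type samples and 1.28 to 20.8 in the mutants. The 4 leaf markers (Rubisco, Rubisco activase, glycine decarboxylase and carbonic anhydrase genes) summed to 16610 to 21560 in wild-type samples, 14320 to 16110 in the double mutant and 14690 to 15970 in the triple mutant. The 4 root and 5 flower markers summed to at most 0.298 and 0.196, and 1 of each was at 0 in all samples. Summed guard cell markers were 22.1 to 26.5 in wild-type samples, 15.7 to 20.4 in the double mutant and 19.2 to 21.4 in the triple mutant. Summed immune markers were 35.2 to 176, 128 to 196 and 96.0 to 254, and summed proliferating cell markers 14.4 to 20.7, 17.0 to 26.6 and 18.7 to 19.7. In the authors' scaled units the leaf and guard cell sums were lower in every mutant sample than in every wild-type sample, as GLK1 was. With the scaling undone both sums overlapped between the mutants and the wild type, and GLK1 did not. The part of these cell types and states in the results was not tested. In whole leaves, fewer cells of a type and less RNA per cell cannot be told apart.

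**Figure D1:**
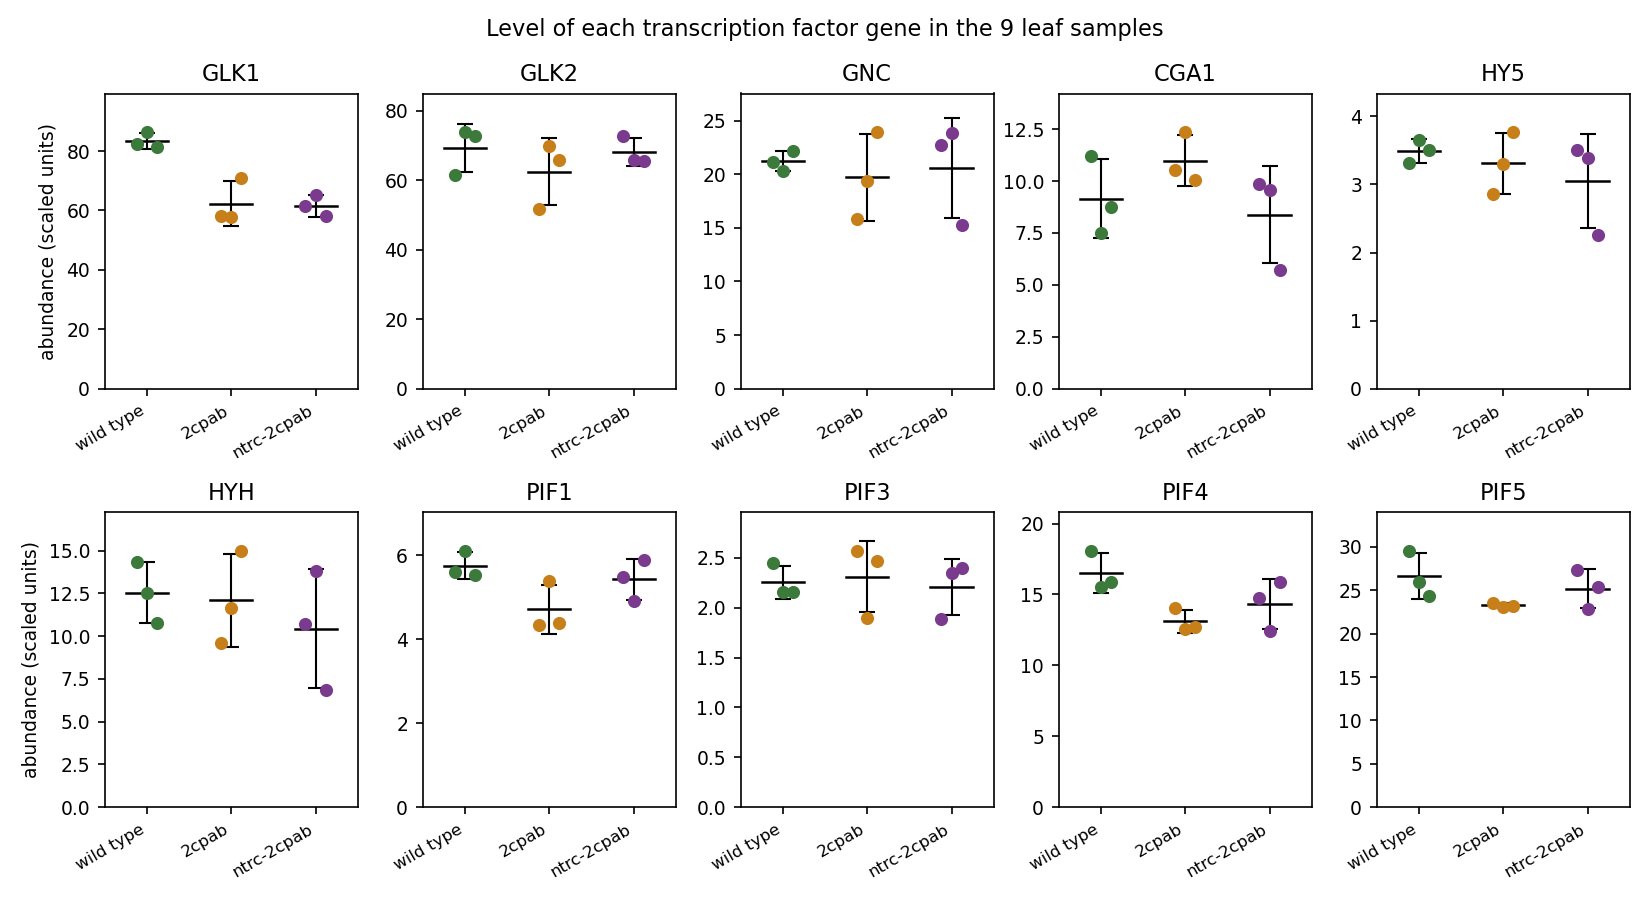
Abundance (scaled units, axis from 0) of the 10 genes in each of the 9 samples; points are samples in the order of replicates 1, 2 and 3, and bars are the mean ± SD (n = 3). GLK1 lies between 81.5 and 86.4 in the wild type and between 57.9 and 71.0 in the mutants, and the genotypes overlap for most other genes.

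The 10 genes spanned a wide range of levels. In the wild type GLK1 was the most abundant, with a mean of 83.4, and 2.31% of all loci lay above it. GLK2 followed at 69.4, PIF5 at 26.6, GNC at 21.2, PIF4 at 16.5, HYH at 12.5, CGA1 at 9.15, PIF1 at 5.75, HY5 at 3.49 and PIF3 at 2.25, the last with 40.0% of loci above it. Of the neighbours in this order, HYH and CGA1 had wild-type samples that overlapped, and each other neighbouring pair did not. These abundances came from an assembler that reports values per transcript length, which allows levels of different genes to be set side by side. The order of means was the same in the mutants but for GLK1 and GLK2. In 2cpab their means were about equal, at 62.3 and 62.4, with overlapping samples. In ntrc-2cpab they were 61.6 and 68.0, and the highest GLK1 sample (65.35) lay just below the lowest GLK2 sample (65.65). More neighbouring pairs overlapped in each mutant than in the wild type.

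The first question was whether mutating both peroxiredoxin genes alters the transcripts of these regulators. None of the 10 genes passed the test in 2cpab (limma over 16384 loci, adjusted p under 0.05), where 0.134% of all tested loci passed. The lowest adjusted p among them was 0.0913, that of GLK1. At an unadjusted p under 0.05 there were 3 of them, GLK1, PIF1 and PIF4, all lower, against 17.3% of all loci in both directions. In 4 of 10, GLK1, PIF1, PIF4 and PIF5, every 2cpab sample was below every wild-type sample, which was so for 11.6% of all loci. With the scaling undone this held for 2 of 10, GLK1 and PIF4, and for 4.34% of loci. The median log2 fold change of the 10 was -0.14, with 8 below 0 (-0.020 and 6 with the authors' scaling undone, when HY5 and HYH were above 0), while the median of all loci was 6.42e-05 and 50.0% were below 0. These shares were not tested against each other.

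The second question was whether mutating NTRC together with the peroxiredoxin genes alters the transcripts of these regulators. GLK1 fell in ntrc-2cpab and was the 1 gene of the 10 that passed, where 3.94% of all tested loci passed. It was also the 1 gene of the 10 at an unadjusted p under 0.05, a level reached by 24.4% of all loci, and the 1 gene whose samples were all below the wild type, as 13.9% of loci were. All 10 genes had a negative log2 fold change, from -0.43 to -0.023 (7 with the scaling undone, when GLK2, GNC and PIF3 were above 0). Their median was -0.10 (-0.034 with the scaling undone) against 0.0018 for all loci (0.065 with the scaling undone). The count of 1 of 10 was below the last 2 of these shares, and a single gene is too few to set against the first.

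The third question was what the mutation of NTRC adds to those of the peroxiredoxin genes. None of the 10 genes passed and none reached an unadjusted p under 0.05 in limma, as 0.0061% and 4.32% of all loci did. Log2 fold changes ran from -0.38 to 0.17, with 5 genes on each side of 0. CGA1 had every ntrc-2cpab sample below every 2cpab sample, as had 4.53% of loci. Both comparisons with the wild type share its 3 samples, so like values in the 2 mutants are not independent of each other.

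**Figure D2:**
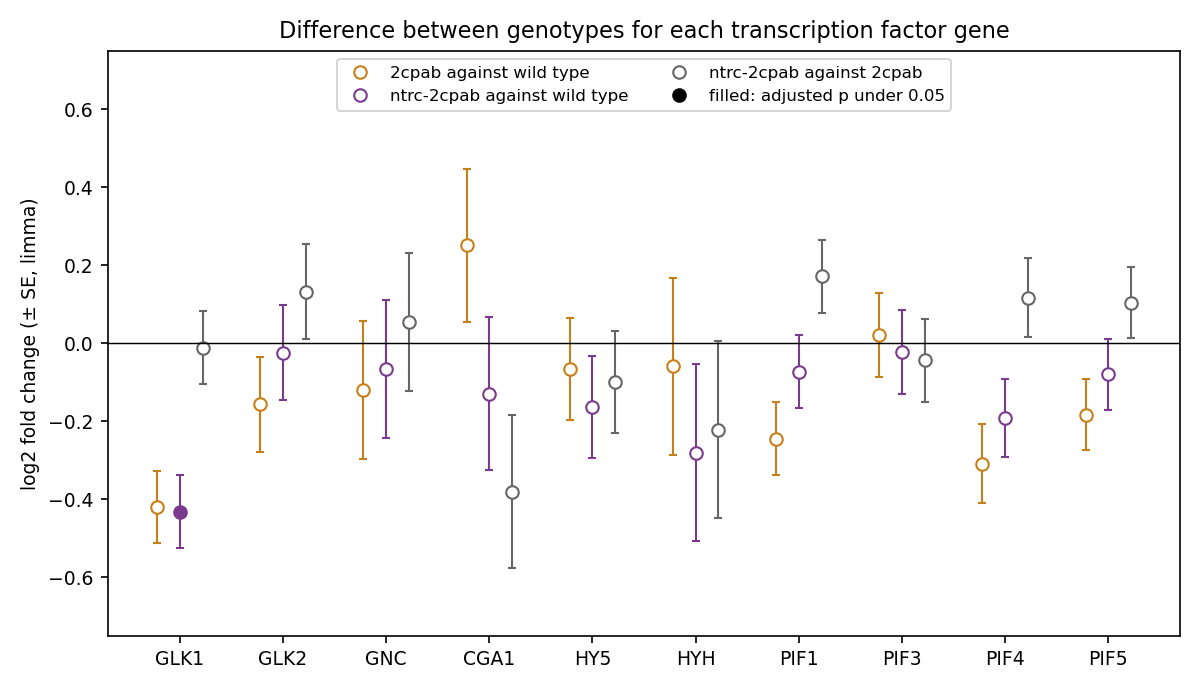
Log2 fold change ± SE (limma, all 9 samples in 1 fit) of each gene in the 3 comparisons; a filled point has an adjusted p under 0.05. GLK1 in ntrc-2cpab against the wild type, at -0.43, is the filled point, and the ntrc-2cpab against 2cpab value of GLK1 is -0.011.

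GLK1, the more abundant of the Golden2-like pair in wild-type leaves, had abundances of 82.3, 86.4 and 81.5 in the wild-type samples, in the order of replicates 1, 2 and 3. In 2cpab it stood at 58.1, 57.9 and 71.0, and in ntrc-2cpab at 61.5, 65.4 and 58.0. The mutant samples lay below the wild type without overlap and overlapped with each other. The wild-type mean was 83.4 ± 2.65 (SD, n = 3). The 2cpab mean of 62.3 ± 7.50 was 74.7% of it, and the ntrc-2cpab mean of 61.6 ± 3.68 was 73.9%. On the log2 scale the difference was -0.42 ± 0.093 (SE) in 2cpab, which did not pass (limma adjusted p = 0.0913). It was -0.43 ± 0.093 in ntrc-2cpab, which passed (limma adjusted p = 0.0405).

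The size of the fall in GLK1 was steady and its call was not. Over 17 alternatives the log2 fold change in ntrc-2cpab stayed between -0.47 and -0.36, and the gene passed in 5 of them. Leaving out any sample other than 2cpab replicate 3 ended the call (limma adjusted p = 0.0514 to 0.111), as did testing all loci without a filter (limma adjusted p = 0.0664) and undoing the authors' scaling (limma adjusted p = 0.052, log2 fold change -0.36). In 2cpab the log2 fold change ran from -0.52 to -0.30 and the gene passed in none of the 17 (limma adjusted p = 0.0643 to 0.316). Without wild type replicate 1, the sample that stood apart, the values were -0.43 in 2cpab and -0.44 in ntrc-2cpab.

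GLK2, which acts redundantly with GLK1 in greening, had abundances of 61.4, 73.9 and 72.9 in wild-type samples, 51.6, 69.9 and 65.8 in the double mutant and 72.7, 65.8 and 65.7 in the triple mutant. The genotypes overlapped. The log2 fold change was -0.16 ± 0.12 (SE) in 2cpab (limma adjusted p = 0.547) and -0.024 ± 0.12 in ntrc-2cpab (limma adjusted p = 0.927). The ratio of GLK1 to GLK2 within a sample does not depend on the scaling between samples. It was 1.34, 1.17 and 1.12 in wild-type samples, 1.13, 0.828 and 1.08 in the double mutant, and 0.847, 0.993 and 0.883 in the triple mutant. The ratio was above 1 in all wild-type samples and below 1 in all ntrc-2cpab samples, and 2cpab overlapped with both. This ratio was picked after the values were seen and was not tested, so the pair is not shown to differ in its response.

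**Figure D3:**
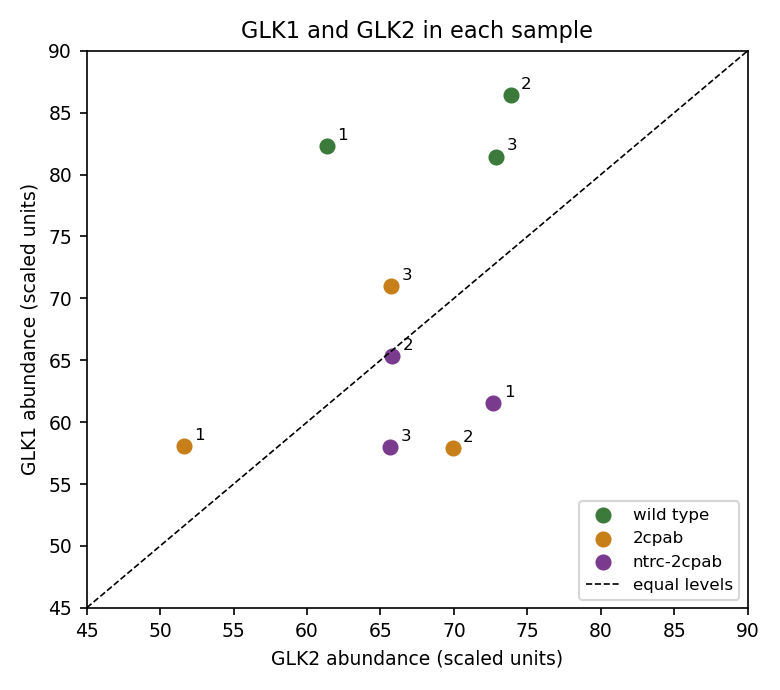
GLK1 abundance (vertical, scaled units) against GLK2 abundance (horizontal, scaled units) in each sample, numbered by replicate; both axes start at 45 and the dashed line marks equal levels. The wild-type samples lie above the line and the ntrc-2cpab samples below it.

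The 250 bases before the annotated start of GLK1 and GLK2 are shown because 1 gene of this pair fell. Sequences are from the RefSeq genome TAIR10.1, read 5′ to 3′ on the strand of the gene, and capitals mark an I-box, a light-responsive element with the letters GATAAG, or its reverse complement.
GLK1 (chr2:8855052-8855301, plus strand): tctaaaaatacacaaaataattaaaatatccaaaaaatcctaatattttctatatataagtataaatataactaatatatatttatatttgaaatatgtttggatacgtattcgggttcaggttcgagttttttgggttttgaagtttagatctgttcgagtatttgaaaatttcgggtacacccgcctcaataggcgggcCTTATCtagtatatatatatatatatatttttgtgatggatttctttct
GLK2 (chr5:17798012-17798261, plus strand): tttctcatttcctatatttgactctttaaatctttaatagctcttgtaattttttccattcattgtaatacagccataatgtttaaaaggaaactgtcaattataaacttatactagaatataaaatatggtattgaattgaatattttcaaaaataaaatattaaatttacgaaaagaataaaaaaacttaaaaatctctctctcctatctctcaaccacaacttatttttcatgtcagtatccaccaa
The window of GLK1 held 1 I-box, on the opposite strand and with its first base 49 bases before the gene start, and that of GLK2 held none. An I-box on either strand was found in 12.3% of the 27443 windows of nuclear protein-coding genes, and its part in the level of GLK1 was not tested. Neither window held a G-box (CACGTG), the element that PIFs and HY5 bind, or a PBE-box (CACATG or CATGTG), a second element bound by PIFs, which were found in 6.49 and 11.1% of all windows.

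GNC and CGA1 encode GATA factors, and CGA1 is induced by cytokinin. GNC had abundances of 21.2, 20.3 and 22.2 in wild-type samples, 15.8, 19.4 and 23.9 in the double mutant and 22.7, 23.8 and 15.2 in the triple mutant. The mutant samples lay on both sides of the wild type, at log2 fold changes of -0.12 ± 0.18 (SE) in 2cpab and -0.066 ± 0.18 in ntrc-2cpab (limma adjusted p = 0.764 and 0.856). CGA1 stood at 11.2, 7.47 and 8.74 in wild-type samples, 10.5, 12.4 and 10.04 in the double mutant and 9.87, 9.58 and 5.70 in the triple mutant. It was 1 of 2 genes with a positive value in 2cpab, at 0.25 ± 0.20 (limma adjusted p = 0.547), and stood at -0.13 ± 0.20 in ntrc-2cpab (limma adjusted p = 0.729). Between the mutants CGA1 had the largest difference of the 10, -0.38 ± 0.20 (limma adjusted p = 0.993), which was -0.16 without ntrc-2cpab replicate 3.

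HY5, the central activator of photomorphogenesis, was low in these leaves, at 3.31, 3.66 and 3.51 in wild-type samples, 2.86, 3.29 and 3.77 in the double mutant and 3.51, 3.39 and 2.25 in the triple mutant. HYH, its close relative, stood at 14.3, 12.5 and 10.8 in wild-type samples, 9.62, 11.7 and 15.0 in the double mutant and 10.7, 13.8 and 6.83 in the triple mutant. HYH was 3.03 to 4.33 times as abundant as HY5 in every sample. The genotypes overlapped for both. The log2 fold change of HY5 was -0.065 ± 0.13 (SE) in 2cpab and -0.16 ± 0.13 in ntrc-2cpab (limma adjusted p = 0.835 and 0.479). That of HYH was -0.059 ± 0.23 and -0.28 ± 0.23 (limma adjusted p = 0.922 and 0.483), and the second became -0.032 without ntrc-2cpab replicate 3.

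GNC, CGA1, HY5 and HYH all had their lowest value in ntrc-2cpab replicate 3, at -0.39, -0.62, -0.39 and -0.67 from their 9-sample means on the log2 scale. In the same sample PIF1, PIF3, PIF4 and PIF5 stood at 0.14, 0.064, 0.12 and 0.022. GNC, HY5 and HYH were also low in 2cpab replicate 1, at -0.34, -0.14 and -0.23, where CGA1 was at 0.16. The SD between replicates was 0.26 for GNC, 0.29 for CGA1 and 0.34 for HYH on the log2 scale, larger than that of 88.3, 90.9 and 93.9% of tested loci. The SDs of GLK1, PIF1 and PIF5 were 0.11, larger than those of 33.9 to 36.9% of loci. Over the 9 samples Pearson's r was 0.87 between GNC and HY5, 0.81 between GNC and HYH and 0.85 between HY5 and HYH, and 0.94, 0.88 and 0.83 after each genotype's mean was removed. Spearman's rho of the same pairs was 0.77, 0.68 and 0.62. CGA1 had Pearson's r of 0.38, 0.51 and 0.62 with GNC, HY5 and HYH. The pairs of GNC, HY5 and HYH, and that of PIF4 and PIF5, had the highest r among all pairs of the 10 genes. For GNC, HY5 and HYH the 100th most alike tested locus had r of 0.80 to 0.81. These values describe 9 samples that share libraries and scaling between genes. The 6 immune markers summed to 254 in ntrc-2cpab replicate 3, their highest sum, and to 96.0 and 195 in replicates 1 and 2. In 2cpab replicate 1, where GNC, HY5 and HYH were also low, they summed to 128, the lowest sum of that genotype. The part of the immune state in these values was not tested.

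**Figure D4:**
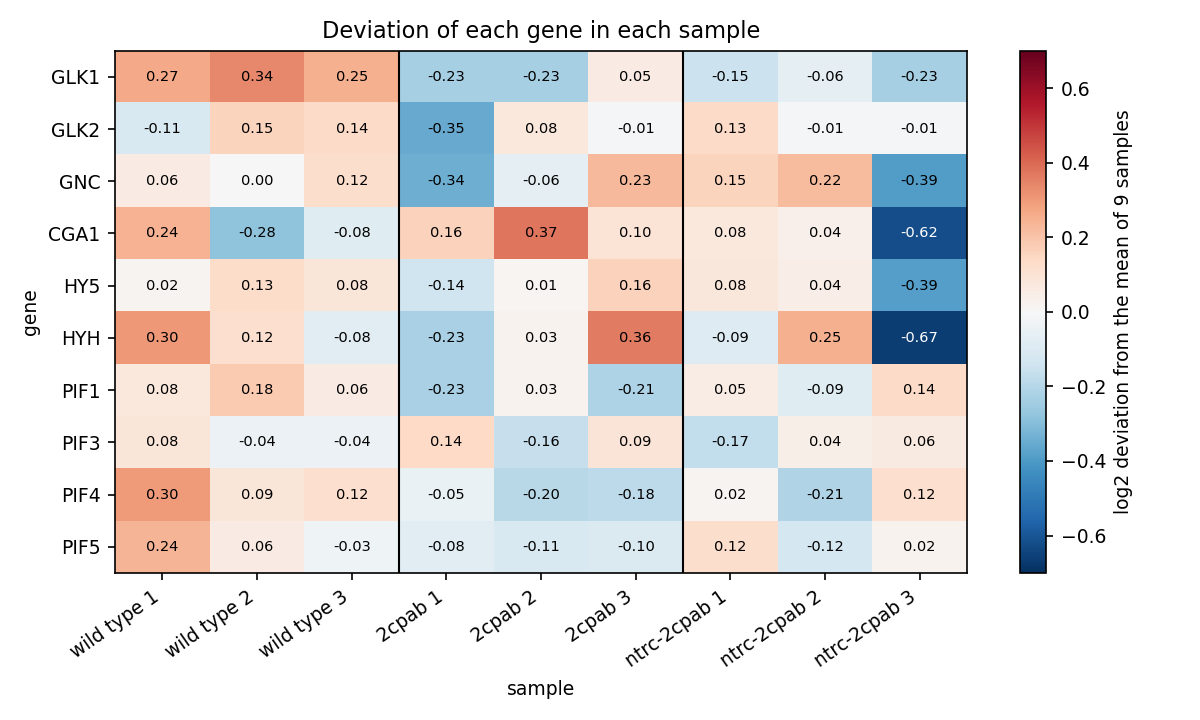
Deviation of each gene from its mean over the 9 samples (log2, colour and printed value), with genes in rows and samples in columns; lines separate the genotypes. GLK1 is above its mean in the 3 wild-type samples, and GNC, CGA1, HY5 and HYH are lowest in ntrc-2cpab replicate 3.

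Among the phytochrome-interacting factors, PIF4, which drives growth in warmth and shade, had abundances of 18.1, 15.5 and 15.9 in wild-type samples, 14.0, 12.6 and 12.7 in the double mutant and 14.8, 12.4 and 15.9 in the triple mutant. All 2cpab samples were below the wild type, at 79.5% of its mean, and ntrc-2cpab overlapped with both. The log2 fold change was -0.31 ± 0.10 (SE) in 2cpab (limma adjusted p = 0.177) and -0.19 ± 0.10 in ntrc-2cpab (limma adjusted p = 0.276). PIF5, a close relative of PIF4, stood at 29.6, 26.0 and 24.4 in wild-type samples, 23.6, 23.1 and 23.2 in the double mutant and 27.3, 22.8 and 25.3 in the triple mutant. Its 2cpab samples were also below the wild type, with log2 fold changes of -0.18 ± 0.091 in 2cpab and -0.079 ± 0.091 in ntrc-2cpab (limma adjusted p = 0.339 and 0.637). Without wild type replicate 1, in which both were highest, PIF4 was at -0.24 and PIF5 at -0.11 in 2cpab. With the scaling undone they were at -0.19 and -0.065, and the PIF5 samples overlapped with the wild type.

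PIF4 and PIF5 varied together. The ratio of PIF5 to PIF4 lay between 1.54 and 1.85 in the 9 samples, and r was 0.86 over the samples and 0.76 after the genotype means were removed. The 10th most alike tested locus had r of 0.918 with PIF4 and 0.892 with PIF5, so other loci followed each gene more closely. Because PIF4 and PIF5 varied together, the 250 bases before their starts are shown, with motifs in capitals as above.
PIF4 (chr2:17885851-17886100, plus strand): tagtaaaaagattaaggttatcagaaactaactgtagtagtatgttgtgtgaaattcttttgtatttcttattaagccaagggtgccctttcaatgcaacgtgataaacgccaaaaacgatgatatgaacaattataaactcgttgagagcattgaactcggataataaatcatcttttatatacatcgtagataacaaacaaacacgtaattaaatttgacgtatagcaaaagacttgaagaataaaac
PIF5 (chr3:21830838-21831087, minus strand): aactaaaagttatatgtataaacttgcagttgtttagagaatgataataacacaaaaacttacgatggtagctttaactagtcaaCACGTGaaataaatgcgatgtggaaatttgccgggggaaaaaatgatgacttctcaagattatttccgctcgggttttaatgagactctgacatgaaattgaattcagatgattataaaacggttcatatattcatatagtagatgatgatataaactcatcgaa
The window of PIF5 held 1 G-box (CACGTG), with its first base 165 bases before the gene start, and no PBE-box or I-box. That of PIF4 held none of these letters. PIF3 held an I-box 99 bases before its start and HY5 a PBE-box 138 bases before, in a window that overlaps the gene AT5G11270. The windows of the remaining genes held no match.

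PIF1, which represses germination and chlorophyll synthesis in darkness, stood at 5.60, 6.12 and 5.53 in wild-type samples, 4.35, 5.38 and 4.40 in the double mutant and 5.49, 4.91 and 5.88 in the triple mutant. The 2cpab samples were below the wild type, at -0.25 ± 0.093 (SE; limma adjusted p = 0.224), and ntrc-2cpab overlapped with it, at -0.073 ± 0.093 (limma adjusted p = 0.675). With the scaling undone PIF1 was at -0.14 in 2cpab and its samples overlapped with the wild type. The gene overlaps AT2G20170 in the annotation, so reads of either could count for both. PIF3, the founding member of the family, was the least abundant, at 2.45, 2.16 and 2.16 in wild-type samples, 2.57, 1.90 and 2.46 in the double mutant and 1.89, 2.35 and 2.40 in the triple mutant. The genotypes overlapped, with log2 fold changes of 0.021 ± 0.11 and -0.023 ± 0.11 (limma adjusted p = 0.942 and 0.920).

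For each of the 10 genes, the tested locus with the most similar log2 values over the 9 samples was taken by Pearson's r. GLK1 was closest to AT5G17670, an alpha/beta-hydrolase gene, at 0.994, GLK2 to YLS8, an mRNA splicing factor gene, at 0.983, and CGA1 to IMPL2, an inositol monophosphatase gene, at 0.958. PIF4 was closest to TTN8 (AT3G54670), a chromosome maintenance gene, at 0.969, PIF3 to UPM1, which makes the precursor of sirohaem, at 0.939, and PIF5 to SINAT2 at 0.937. HY5, HYH, PIF1 and GNC were closest to AT5G67390 (0.968), AT3G61550 (0.964), AT2G46735 (0.966) and AT1G80910 (0.928). The best of 16383 loci over 9 samples is high by its choice, and the 100th most alike locus still had r between 0.746 and 0.923.

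Other genes of the pathway were taken in 7 lists. Among 26 genes of chlorophyll synthesis and light harvesting that GLK factors induce, all 26 were below 0 in 2cpab, as 50.0% of all loci were. With the authors' scaling undone 24 of them were below 0. Their median was -0.25 (-0.12 with the scaling undone). None of them passed in limma, and 13 had an unadjusted p under 0.05, all lower, as 17.3% of all loci had in both directions. In ntrc-2cpab 23 of 26 were below 0 (19 with the scaling undone), as 49.6% of all loci were. The median there was -0.15 (-0.069 with the scaling undone). In that mutant 2 of 26 fell, where 3.94% of all loci passed, and 6 had an unadjusted p under 0.05, near the 24.4% of all loci. Relative to the median of all loci, the list stood at -0.22 in 2cpab and -0.13 in ntrc-2cpab with the scaling undone. The 4 leaf markers, which are not in this list, were at -0.425 to -0.295 in 2cpab, and none of them passed. Lower values in 2cpab were therefore not particular to the GLK-induced genes. The 26 genes were measured in the same samples, so their directions are not independent of each other. BBX16 (AT1G73870), a B-box factor gene that acts downstream of GLK1, had abundances of 49.2, 46.7 and 38.6 in wild-type samples, 25.3, 27.5 and 33.6 in the double mutant and 25.9, 31.4 and 22.3 in the triple mutant. It fell in ntrc-2cpab by 0.74 on the log2 scale (limma adjusted p = 0.0332), and in 2cpab its value of -0.62 did not pass (limma adjusted p = 0.1). CAO, chlorophyllide a oxygenase, which makes chlorophyll b, fell in ntrc-2cpab to 74.99 ± 3.785 from 93.68 ± 3.271 (SD, n = 3; limma adjusted p = 0.049), and stood at 72.3 ± 4.08 in 2cpab. GUN4, an activator of magnesium chelatase, and the antenna gene LHCB6 did not pass, at -0.26 and -0.26 in ntrc-2cpab.

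Of 17 partners and induced genes of HY5, 15 were tested and none passed in limma in 2cpab, where 2 had an unadjusted p under 0.05, a share below the 17.3% of all loci. The median was -0.083 (0.0091 with the scaling undone). In ntrc-2cpab 1 rose and 1 fell, where 3.94% of all loci passed, and 1 higher and 5 lower had an unadjusted p under 0.05, against 24.4% of all loci. The median there was -0.18 (-0.13 with the scaling undone). BBX22, a B-box partner of HY5, rose to 7.16 ± 1.58 from 4.34 ± 0.507 (SD, n = 3; log2 fold change 0.60, limma adjusted p = 0.0496), and single samples were 3.84 to 4.85 in the wild type and 5.66 to 8.81 in ntrc-2cpab. CHI, chalcone isomerase of flavonoid synthesis, fell by 0.51 (limma adjusted p = 0.0453). F3H, the next enzyme of that pathway, was at -0.74 and BBX24, which restrains HY5, at -0.21, and neither passed.

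Of 15 B-GATA relatives and cytokinin response regulators, 12 were tested, with medians of -0.20 in 2cpab and -0.25 in ntrc-2cpab. These medians were -0.082 and -0.17 with the scaling undone, and -0.093 and -0.14 without wild type replicate 1. The negative medians came from the response regulators. In ntrc-2cpab the 4 genes above 0 were the tested B-GATA genes (0.016 to 0.30), and the 8 below 0 were response regulators. In 2cpab the same B-GATA genes (0.031 to 0.20) and a response regulator were above 0, and the 7 below 0 were response regulators. In 2cpab none passed in limma and 3 had an unadjusted p under 0.05, against 17.3% of all loci. In ntrc-2cpab 1 fell, where 3.94% of all loci passed, and 1 higher and 5 lower had an unadjusted p under 0.05, against 24.4%. ARR16, a type-A response regulator induced by cytokinin, stood at 14.4, 14.0 and 11.98 in wild-type samples, 9.75, 8.05 and 8.43 in the double mutant and 7.69, 9.44 and 8.35 in the triple mutant. It fell in ntrc-2cpab by 0.61 (limma adjusted p = 0.0223), and its value of -0.57 in 2cpab did not pass (limma adjusted p = 0.0645). ARR15 and ARR9 were at -0.78 and -0.39 in ntrc-2cpab and GATA17L at 0.30, none of which passed.

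None of the other 4 lists held a gene that passed in limma in any comparison. Their counts at an unadjusted p under 0.05 stand beside 17.3% of all loci in 2cpab and 24.4% in ntrc-2cpab: 3 and 3 of 14 photoreceptor and COP1-SPA genes, 1 and 4 of 10 relatives and restrainers of PIFs, 1 and 1 of 5 PIF-induced genes, and 1 and 3 of 5 plastid-to-nucleus genes. The 14 photoreceptor and COP1-SPA genes had medians of -0.13 and -0.16 in 2cpab and ntrc-2cpab (-0.022 and -0.087 with the scaling undone, with 10 of 14 below 0 in each), with SPA3 at -0.47 and -0.50, SPA4 at -0.40 and -0.50, SPA1 at -0.15 and -0.22 and PHYA at -0.16 and -0.27. The 10 tested relatives and restrainers of PIFs had medians of -0.067 and -0.14, the first at 0.033 with the scaling undone. Among them were PIF8 (-0.23 and -0.54), the DELLA genes RGL1 (-0.17 and -0.37) and RGL2 (-0.066 and -0.42), and ELF3, of the evening complex that represses PIF4 and PIF5 (-0.064 and 0.37). The 5 tested shade and growth genes that PIFs induce had medians of 0.11 and -0.13 (0.21 and -0.066 with the scaling undone). The second median was 0.052 without wild type replicate 1. In this list the cytokinin oxidase gene CKX5 was at -0.61 and -0.46, ATHB2 at -0.009 and -0.27, IAA19 at 0.11 and -0.13 and IAA29 at 0.18 and 0.26. The 5 tested genes of plastid-to-nucleus signalling had medians of -0.12 and -0.18 (-0.0021 and -0.11 with the scaling undone, and the first -0.027 without the filter), with GUN1 at -0.17 and -0.18, SAL1 at -0.25 and -0.39, EX1 at -0.12 and -0.23 and the ferrochelatase gene FC1 at 0.20 and 0.34.

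The calls of these pathway genes in ntrc-2cpab depended on the fit. Of 17 alternatives ARR16 passed in 13, BBX16 in 8, BBX22 in 5, CHI in 4 and CAO in 3, and none changed sign. With the scaling undone CAO stood at -0.24 and CHI at -0.44, and neither passed (limma adjusted p = 0.0966 and 0.0539). In ntrc-2cpab against 2cpab none of the genes in the 7 lists passed in limma (lowest adjusted p = 0.993), and 6 of 87 tested loci reached an unadjusted p under 0.05, or 6.9% against 4.32% of all loci.

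**Figure D5:**
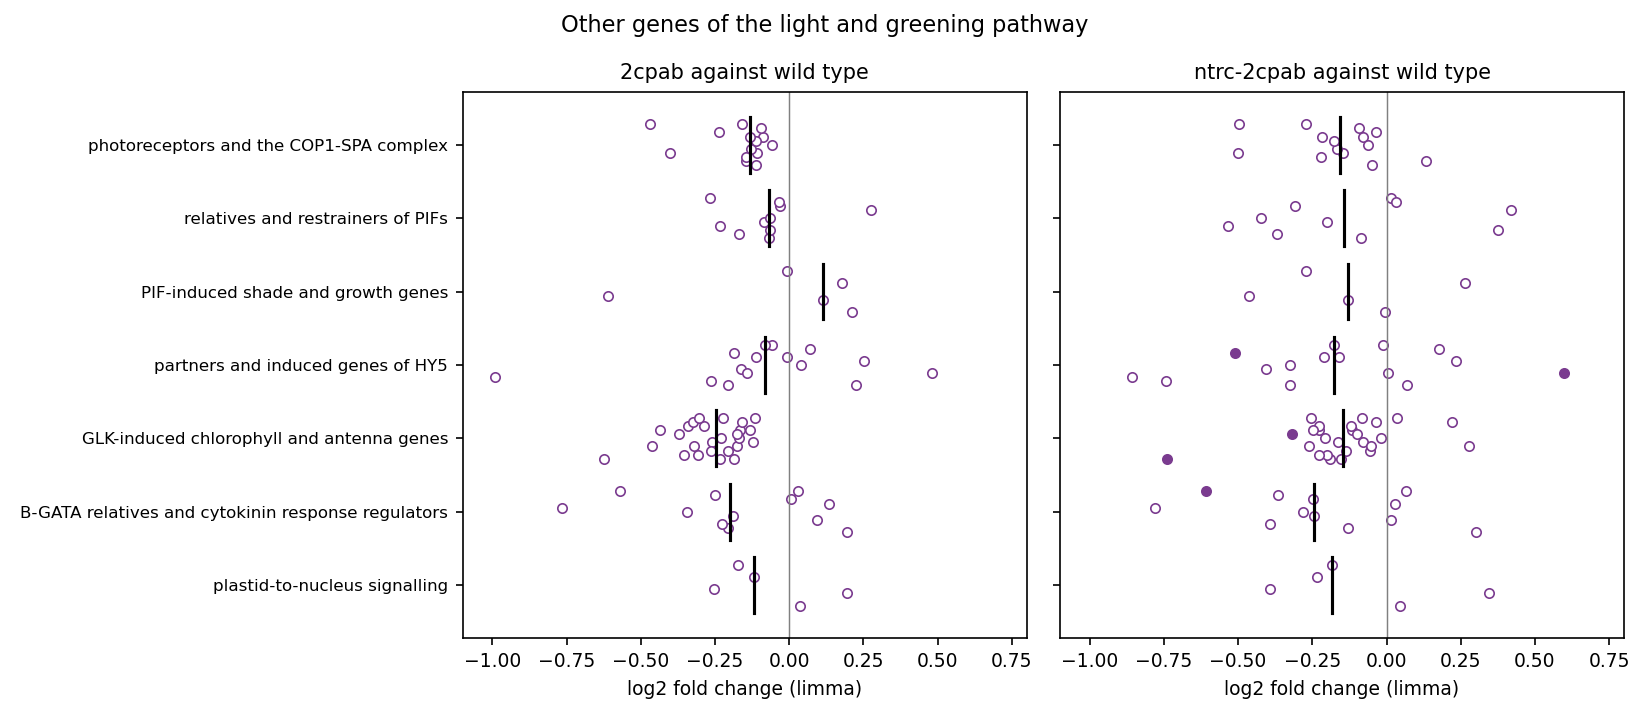
Log2 fold change (limma) of the tested genes of the 7 pathway lists in 2cpab and ntrc-2cpab against the wild type; each circle is a gene, a filled circle has an adjusted p under 0.05, and the black line is the list's median. All 26 GLK-induced genes are below 0 in 2cpab (24 with the authors' scaling undone), and the filled circles in ntrc-2cpab are BBX16, CAO, BBX22, CHI and ARR16.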

How the data were processed

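Poly(A) RNA of 9 leaf samples was sequenced, and the authors deposited 1 table of log2 values for 33602 loci, matched to samples by column name. The submitters' processing notes name the build TAIR10 and the tools HISAT2, StringTie and FastQC, while versions, settings and strand use were not given in any source used here. Each deposited log2 value is log2(abundance + 1), with the 75th percentile at 2.7483 in every sample. The lowest values are whole multiples of a step, the product of a small unit shared by all samples and 1 factor per sample. The factors were 0.9699 to 1.095 (98.7 to 99.7% whole within 0.1) and served to undo the scaling. Whether the abundance was FPKM or TPM is not stated, and depth is unknown.

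Loci with a mean abundance of at least 1 (16384) were tested with limma 3.58.1 in R 4.3.3 (lmFit, contrasts.fit, eBayes with trend), all 9 samples in 1 fit, two-sided, with Benjamini-Hochberg adjustment within each comparison. A gene is said to have risen, fallen or passed at an adjusted p under 0.05. The log2(abundance + 1) scale of all fold changes understates changes of low genes. Alternatives were no filter, a minimum of 5, a pseudocount of 0.1, quantile normalization, the scaling undone, array weights, 2 genotypes only, a replicate block and leaving out each sample. The fit was tested on simulated data first. P-values measure the spread between the pooled leaf samples. Members and lists were chosen with earlier results of these data known. The named genes are the 10 members, the mutated genes, the most alike loci, and from each list every gene that passed and, up to 4, those with the lowest p in ntrc-2cpab against the wild type. Outside this rule, the untested LUX, ELF4, PIL1 and HFR1 were chosen after their values were seen. So were the leaf marker fold changes and the immune marker sums of single samples. Gene names, positions and sequences are from RefSeq TAIR10.1, whose annotation is not named as the authors' own. Sequences were read by the reference's own positions, since the deposited table holds none. Protein sequences were not used here.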

Additional observations from a re-analysis of the deposited data

How the results depend on the processing

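In ntrc-2cpab against the wild type, the count of members passing was 0 in place of 1 without the filter, with scaling undone, with only the 2 genotypes compared and with the replicate block, and 0 to 1 when 1 sample was left out. Loci passing in 2cpab (22) numbered 7 without the filter, 350 with scaling undone, 164 with array weights, 6 with 2 genotypes, 9 with the replicate block and 4 to 116 when 1 sample was left out (6 without wild type replicate 1, 116 without replicate 2). In ntrc-2cpab (645) they numbered 232, 968, 590, 50, 357 and 49 to 761 in the same order. Between the mutants (1) they numbered 5 without the filter, 2 with 2 genotypes and 1 to 2 when 1 sample was left out. Higher and lower calls were 11 and 11 in the double mutant and 427 and 218 in the triple mutant, 327 and 23 and 826 and 142 with scaling undone, and 251 and 106 in ntrc-2cpab with the replicate block. Same-numbered samples did not deviate together (correlations -0.156 to 0.21), so the block pairs numbers only. Undoing the scaling moved the median of all loci by 0.10 in 2cpab and 0.065 in ntrc-2cpab; relative to it GLK1 stood at -0.40 and -0.42.

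Of 504 member values, 460 kept direction and call, 12 (GLK1) lost the call and 32 changed sign, none of them passing; the cause was not tested. With scaling undone HY5 was 0.0293 and HYH 0.0541 in 2cpab, and GLK2 0.0521, GNC 0.00765 and PIF3 0.0308 in ntrc-2cpab. With array weights HYH was 0.0463 in 2cpab, PIF3 0.00997 in ntrc-2cpab and GLK1 0.0118 between the mutants. Leaving out 1 sample gave in 2cpab GNC -0.265 to 0.0198, HY5 -0.141 to 0.0112, HYH -0.215 to 0.0815 and PIF3 -0.0366 to 0.114. In ntrc-2cpab it gave GLK2 -0.109 to 0.0231, GNC -0.18 to 0.127, CGA1 -0.252 to 0.0967 and PIF3 -0.0656 to 0.052, and between the mutants GLK1 -0.0599 to 0.0845, GNC -0.086 to 0.248, HY5 -0.183 to 0.0516, HYH -0.431 to 0.0271 and PIF3 -0.137 to 0.0309. Among pathway genes in 2cpab it gave ELF3 -0.137 to 0.00819, RGL2 -0.196 to 0.117, RGL1 -0.269 to 0.00608, ATHB2 -0.124 to 0.151, IAA29 -0.0749 to 0.463 and IAA19 -0.0811 to 0.301, and IAA19 -0.266 to 0.0583 in ntrc-2cpab. With scaling undone ELF3 was 0.00982, RGL2 0.0359, ATHB2 0.0984 and BBX24 0.00913 in 2cpab, and with array weights ATHB2 was 0.00327. The list median in 2cpab was 0.0327 for relatives and restrainers of PIFs and 0.00913 for HY5 partners with scaling undone, and -0.00901 for PIF-induced genes with a minimum of 5 (-0.0811 to 0.151 leaving out 1 sample, and -0.227 to 0.0516 in ntrc-2cpab).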

Other observations

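Some pathway genes were below the abundance limit for testing and are given as values. LUX, which joins ELF3 in the evening complex, had abundances of 0.517, 0.338 and 0.628 in wild-type samples, 0.857, 0.664 and 0.924 in the double mutant and 1.01, 0.882 and 1.04 in the triple mutant. Every mutant sample was above the wild type. ELF4, the remaining subunit, was listed at 0 in 7 of 9 samples and at 0.066 and 0.0733 in wild type replicate 2 and ntrc-2cpab replicate 1. PIL1, a shade marker induced by PIFs, stood at 0.511, 0.294 and 0.294 in wild-type samples, 0.410, 0.257 and 0.216 in the double mutant and 0.168, 0.0643 and 0.0277 in the triple mutant, where every sample was below the other genotypes. HFR1, a PIF-induced restrainer of PIFs, stood at 0.198 to 0.707 in wild-type samples, 0.255 to 0.358 in the double mutant and 0.175 to 0.387 in the triple mutant. These differences were picked after the values were seen and were not tested.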
